A study of Homo sapiens with 2 samples.

Results

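The genes described here are 32 well-known transcriptional targets of the tumour suppressor p53, followed in HepG2 cells with and without hawk tea extract (HTE). They were taken by name as established targets, and each was found on the array through the RefSeq transcript of its probes. All 32 genes had at least 1 probe, and 31 gave a signal well above background on both arrays, among 23752 genes and unnamed transcripts well above background on at least 1 array. The exception was TNFRSF10C, a decoy receptor, whose signal did not clear the background on the DMSO or the HTE array, so no ratio is given for it.

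HepG2 cells are a human line derived from a hepatocellular carcinoma. One group was HepG2 cells treated with the vehicle dimethyl sulfoxide (DMSO) for 24 h and the other was HepG2 cells treated with HTE for 24 h, with 1 Cy3-labelled Agilent SurePrint G3 array for each. The sample labels give an HTE dose of 200 μg/mL, whereas the study's own text gives a higher dose for the arrays. It reports that cell viability was reduced at that higher dose. With 1 array per group there is no replicate, no test between the groups and no p value, and nothing measures how far parallel cultures would differ. In RNA of whole cultures, a lower signal can stand for less RNA per cell or for fewer cells that make it, and these cannot be told apart.

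p53 is a transcription factor that is kept at a low level by MDM2, a ubiquitin ligase that is itself a p53 target. After DNA damage or other stress p53 is stabilised, binds pairs of a 10-base element in the DNA, and activates genes that halt the cell cycle, repair DNA, alter metabolism or start apoptosis. Part of its repression of cell cycle genes runs through CDKN1A, whose protein p21 inhibits cyclin-dependent kinases and so keeps the repressor complex DREAM in place.

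Signals are given on a log2 scale relative to the 75th percentile of the array (a processed signal of 4020 for DMSO and 3570 for HTE), and a log2 ratio is the HTE value minus the DMSO value. Each gene is represented by its brightest probe. Of the 58717 spots that are not controls, 60.6% cleared the background with DMSO and 56.6% with HTE, and none was saturated. Among 688 probes with replicate spots the log2 ratio had a median SD of 0.051, and among 3759 genes with several measured probes the median SD between probes was 0.16. The error that the scanner software assigns to the ratio of a single probe was 0.20 to 0.21 for the 31 genes. These errors leave out any difference between cultures. All 9 hepatocyte markers checked (ALB, AFP, APOA1, APOB, TTR, SERPINA1, FGB, TF and HNF4A) were well above background on both arrays, with log2 ratios from -0.36 to 0.21. Of 7 markers of other cell types 5 were also well above background on both arrays, from -1.82 for PECAM1 to 0.46 for VIM, and SI and LGALS4 were not. Whether these bear on the p53 targets was not tested.

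The promoters of the target genes were searched for the consensus of the p53 decamer, the 10-base element of which a full p53 site holds a pair. The RefSeq promoter table (GRCh38.p14) holds 250 bases before and 50 bases after each annotated start, and it gave promoters for 25 of the 32 genes. A decamer that met the consensus at every base was found for 7 of these 25 genes (28.0%), against 8.06% of all 27305 genes in the table. Counted by promoter it was in 7 of 37, against 6.63% of all promoters. DDB2, FAS, FDXR and SESN1 also had promoters without a match. The members were chosen as established p53 targets, so a higher share was built into the choice. The consensus reads the same on both strands. The matches are shown in capitals with their flanks, 5′ to 3′ on the strand of the gene, since they show which members carry the element next to their start.

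DDB2, chr11:47214975-47215004, plus strand: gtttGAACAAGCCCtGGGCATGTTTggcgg

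FAS, chr10:88991299-88991328, plus strand: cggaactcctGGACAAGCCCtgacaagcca

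AEN, chr15:88621296-88621325, plus strand: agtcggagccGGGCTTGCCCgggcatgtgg

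FDXR, chr17:74872986-74873015, minus strand: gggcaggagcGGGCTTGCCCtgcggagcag

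RPS27L, chr15:63157517-63157546, minus strand: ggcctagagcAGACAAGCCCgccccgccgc

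SESN1, chr6:109009018-109009047, minus strand: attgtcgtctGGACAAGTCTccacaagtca

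PLK2, chr5:58460199-58460228, minus strand: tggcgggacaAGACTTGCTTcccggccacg

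DDB2 held a complete pair of decamers with a spacer of 1 base, starting at base 6 of the transcript. With a spacer of 0 to 13 bases allowed, such a pair was present in 10 of the 35116 promoters in the table. A match describes these letters only, and many p53 sites lie outside a window of this length.

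As a set, the p53 targets were split between both directions. Of the 31 measured genes 18 had a log2 ratio above 0 (58.1%) and 13 below 0, whereas 45.7% of all 23752 genes and 49.5% of the 21000 that cleared the background on both arrays were above 0. The median was 0.12, against -0.0049 for those 21000 genes. Only TP53INP1 and BBC3 were at least 2-fold higher, which is 6.45% of the measured members beside 5.25% of all 23752 genes and 4.29% of the 21000, so the share is close to the background. No member was at least 2-fold lower, where the background was 3.03% of all genes and 2.96% of the 21000. The SD of the log2 ratios was 0.54 over the members and 0.59 over all genes. After BBC3 the next largest ratio was that of CDKN1A, at 0.83. All directions are relative to the 75th percentile, and with scaling to a spike-in RNA 29 of the 31 members were below 0, where 3.32% of all genes were above 0. At the looser level of 1.5-fold, 5 members were higher (16.1%, background 12.4%) and 1 was lower (3.23%, background 10.5%).

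**Figure D1:**
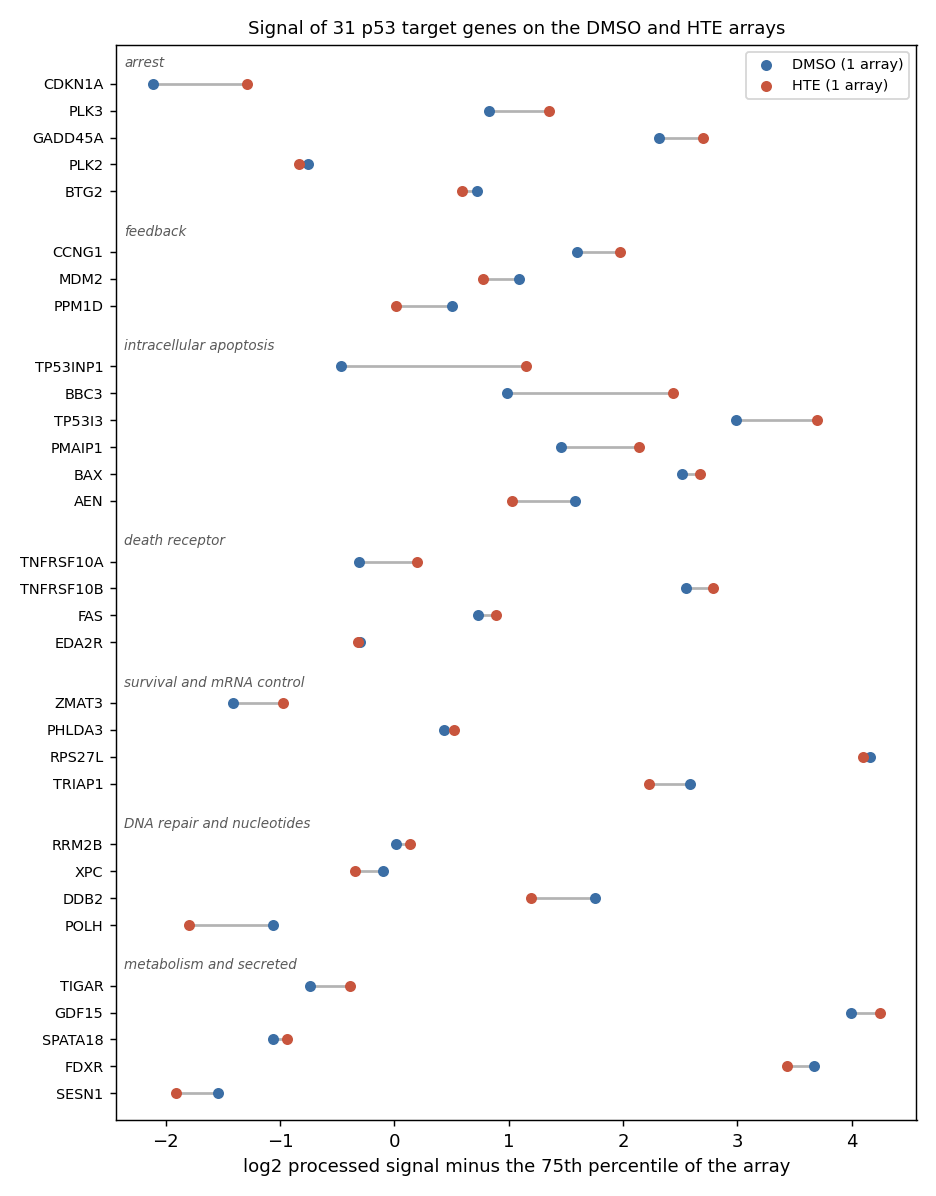
Scaled log2 signal of the brightest probe of 31 p53 target genes on the DMSO array (blue) and the HTE array (red), 1 array each, grouped by the role of the gene; levels of different genes come from different probes and are not comparable. The widest gaps are those of TP53INP1 and BBC3, both with HTE to the right.

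The 2 largest ratios were those of TP53INP1 and BBC3, both grouped here with genes that promote apoptosis from inside the cell. Of that group 5 of 6 were higher with HTE (4 without scaling and 2 with spike-in scaling), with a median log2 ratio of 0.69. Over all 23752 genes 45.7% were above 0, 31.8% without scaling and 3.32% with spike-in scaling. The groups by role are small, and none was tested. TP53INP1, a stress-induced nuclear protein that promotes p53 phosphorylation and autophagy, had a signal of -0.47 in DMSO-treated cells and 1.15 in HTE-treated cells, a log2 ratio of 1.62 or 3.08-fold. Its dimmer probe went from -4.94 to -3.81, a log2 ratio of 1.13, so both probes were past 2-fold. That probe had unscaled signals of only 131 with DMSO and 254 with HTE and a software error of 0.28. Its excess over 2-fold was within that error. BBC3, which encodes the BH3-only protein PUMA, went from 0.98 to 2.44, a log2 ratio of 1.45 or 2.74-fold. In unscaled signal BBC3 was 7947 on the DMSO array and 19314 on the HTE array. PUMA binds and neutralises the antiapoptotic members of the BCL2 family, and PMAIP1 (NOXA) is a BH3-only protein as well. PMAIP1 had a signal of 1.46 and 2.14, a log2 ratio of 0.68. TP53I3 (PIG3), a quinone oxidoreductase linked to oxidative stress, went from 2.99 to 3.69 (log2 ratio of 0.71) and by 0.64 at its second probe. These 2 genes were past 1.5-fold but not past 2-fold.

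BAX, the effector that permeabilises the mitochondrial outer membrane, differed little. The 10 replicate spots of its brightest probe lay between 2.47 and 2.59 on the DMSO array and between 2.61 and 2.73 on the HTE array. After scaling the spots of the 2 arrays did not overlap. The log2 ratio was 0.16 ± 0.039 (SD of 10 spots), which is more than the spot error and within the software error. Without scaling the log2 ratio of this probe was -0.016. A dimmer BAX probe, annotated to another transcript, gave 0.55. AEN, a nuclease that digests DNA in apoptotic cells, went the other way, from 1.58 to 1.03, a log2 ratio of -0.55. Its second probe gave -0.26.

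The 4 measured genes grouped here as receptors differed little, and all 4 were below 0 with spike-in scaling. TNFRSF10A, TNFRSF10B and FAS are death receptors, which start apoptosis at the cell surface on binding their ligands. TNFRSF10A, a receptor for the ligand TRAIL, went from -0.31 to 0.19, a log2 ratio of 0.50. TNFRSF10B, the other TRAIL receptor with a death domain, went from 2.55 to 2.79, a log2 ratio of 0.23. For FAS, the receptor of FAS ligand, all 3 probes gave similar log2 ratios, from 0.15 to 0.22. At its brightest probe the 10 spots spanned 0.63 to 0.80 with DMSO and 0.77 to 0.97 with HTE. The spots of the arrays overlapped, although each of the 10 positions was higher on the HTE array after scaling. That direction came with the scaling, since without it the log2 ratio of this probe was -0.020. EDA2R, a receptor of ectodysplasin, had nearly equal signals of -0.30 and -0.32. None of the 4 measured receptors was past 1.5-fold.

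**Figure D2:**
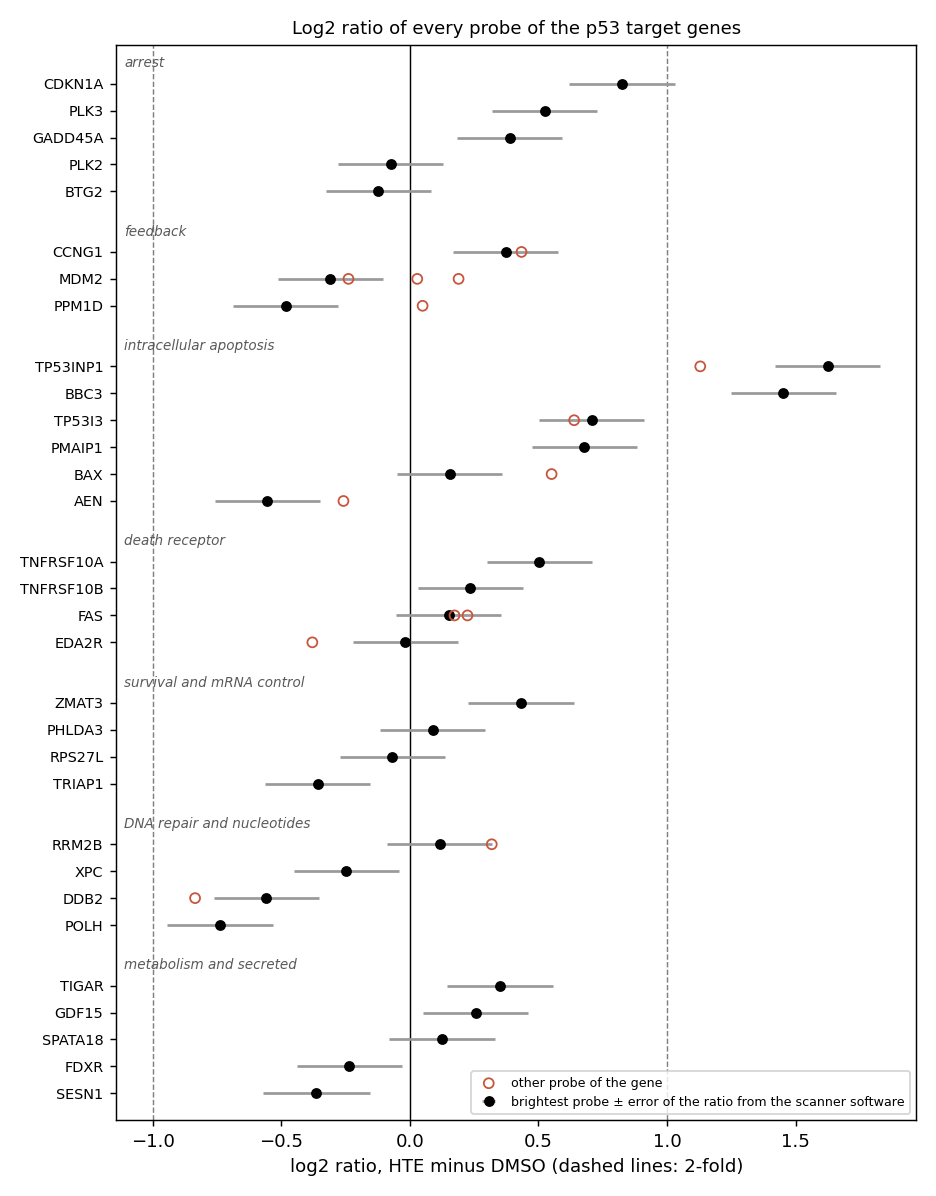
Log2 ratio (HTE minus DMSO) of each probe of the p53 target genes that was well above background on at least 1 array; black points are brightest probes with the error assigned by the scanner software, open circles are other probes, and the open circle of EDA2R is a bound because that probe was well above background with DMSO only. TP53INP1 and BBC3 lie right of the 2-fold line, POLH is farthest to the left, and the probes of MDM2 and PPM1D fall on both sides of 0.

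Genes that halt the cell cycle were mixed, with 3 of 5 higher and 0 of 5 with spike-in scaling. CDKN1A went from -2.12 to -1.29, a log2 ratio of 0.83 or 1.77-fold. Its only probe was dim, with processed signals of 927 and 1459. PLK3, a stress-responsive kinase, had 0.83 and 1.35 (log2 ratio of 0.52). GADD45A, which acts in growth arrest and in p38 and JNK signalling, had 2.31 and 2.70 (0.39). The remaining 2 genes of the group were within the software error. PLK2, a kinase of centriole duplication, had a log2 ratio of -0.074, and BTG2, an antiproliferative protein that promotes mRNA deadenylation, one of -0.12. CDKN1B, which encodes the related inhibitor p27 and is not a classical p53 target, went from 2.01 to 1.92 (log2 ratio of -0.082).

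Among the 3 genes that restrain p53, the probes of MDM2 and PPM1D fell on both sides of 0 and those of CCNG1 lay above it. MDM2 had 4 probes. The brightest went from 1.09 to 0.78 (log2 ratio of -0.31), and the next, almost as bright, went from 0.83 to 1.02 (0.19). The dimmer probes gave 0.029 and -0.24, and at the last of these all 9 usable spots were lower on the HTE array, from -1.68 to -1.59 with DMSO and from -1.96 to -1.78 with HTE. No direction is therefore given for MDM2. PPM1D, the phosphatase WIP1 that dephosphorylates p53 and its kinases, had a log2 ratio of -0.48 (0.50 to 0.017) at its brightest probe and 0.050 at the other. CCNG1, cyclin G1, which works with a phosphatase to activate MDM2, was higher at both of its probes, with 0.37 (1.60 to 1.97) at the brighter and 0.43 at the dimmer.

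**Figure D3:**
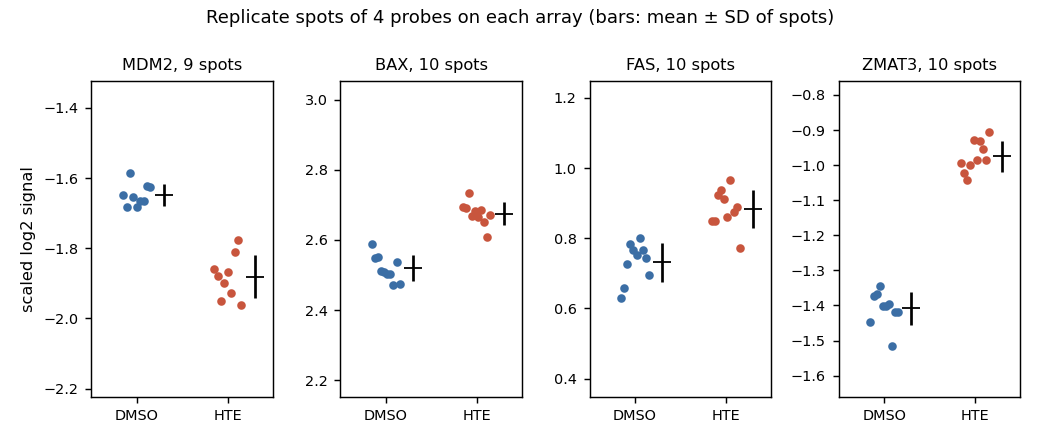
Scaled log2 signal of the replicate spots of a single probe of MDM2 (9 spots), BAX, FAS and ZMAT3 (10 spots each) on the DMSO and HTE arrays, with the mean ± SD over spots and the same axis span in each panel. On this scale the spots of BAX, ZMAT3 and MDM2 do not overlap between arrays and those of FAS do, and MDM2 is the probe that is lower with HTE.

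DNA repair genes were the group with the lowest median, -0.40, and 3 of its 4 genes were below 0. Over the whole array 11631 of 23752 genes were below 0. With spike-in scaling all 4 were below 0, as were 29 of the 31 members. POLH, the translesion polymerase eta that copies past ultraviolet lesions, had the lowest ratio of all members, from -1.06 to -1.80, a log2 ratio of -0.74 or 1.67-fold lower. DDB2, which recognises ultraviolet lesions in chromatin, went from 1.75 to 1.20 (log2 ratio of -0.56). Its second probe was lower still, at -0.83. XPC, the sensor of global nucleotide excision repair, went from -0.099 to -0.34 (-0.25). RRM2B, the p53-inducible subunit of ribonucleotide reductase that supplies nucleotides outside S phase, had 0.016 and 0.13, a log2 ratio of 0.12, and 0.32 at its second probe. Its S-phase counterpart RRM2 went from -2.14 to -4.29, a log2 ratio of -2.14, and the large subunit RRM1 had -0.48. Among the ribonucleotide reductase genes, the p53-inducible one was thus the only one not below 0, apart from the settings without scaling and with spike-in scaling, in which RRM2B was below 0 as well.

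Of 4 genes of survival signalling and mRNA control, ZMAT3, an RNA-binding protein that controls splicing and mRNA stability, had the highest ratio. Its 10 spots lay between -1.52 and -1.34 with DMSO and between -1.04 and -0.90 with HTE, a log2 ratio of 0.43 ± 0.077 (SD of 10 spots). The arrays did not overlap at any spot. PHLDA3, which competes with AKT for membrane lipids, had 0.44 and 0.52 (log2 ratio of 0.089). TRIAP1, a small mitochondrial protein that inhibits apoptosis, had 2.58 and 2.23 (-0.36). RPS27L, a ribosomal protein that is a near copy of RPS27, had 4.16 and 4.10 (-0.067), and RPS27 itself had a log2 ratio of 0.27.

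Genes of metabolism and secreted factors had log2 ratios between -0.36 and 0.35. TIGAR, which lowers fructose-2,6-bisphosphate and so slows glycolysis, went from -0.74 to -0.39 (log2 ratio of 0.35). GDF15, a secreted stress cytokine, was bright on both arrays, with 3.99 and 4.25 (0.26). SPATA18, a mediator of mitochondrial quality control, had -1.06 and -0.94 (0.12). FDXR, which passes electrons to mitochondrial cytochromes P450, was lower, with 3.67 and 3.44 (-0.23). SESN1, an inhibitor of mTORC1 in stressed cells, went from -1.54 to -1.91 (-0.36). The related SESN2, also a p53 target but not a member of the list, stood in contrast, at 0.053 and 1.65, a log2 ratio of 1.59.

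Of the 7 genes with a decamer next to the start 6 had a log2 ratio below 0, the exception being FAS, and the median of the 7 was -0.23. The ratios of RPS27L, PLK2 and FAS were within the software error. Of the 18 measured genes with a promoter but no match 7 were below 0, with a median of 0.21. Over the whole array the same division showed no such gap, with 45.8% of 930 measured genes with a decamer below 0 and 48.3% of 11161 without one. These counts changed with the processing. Without scaling FAS was below 0 as well, as were BAX and SPATA18 among the genes without a match. With another background correction MDM2 and EDA2R, both without a match, were above 0. With spike-in scaling 29 of all 31 measured members were below 0. The grouping was made after the ratios were known, the number of genes is small, and it was given no test.

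MDM4, which inhibits p53 together with MDM2, had signals of 0.88 and 0.85, a log2 ratio of -0.029. Of 19 measured genes in a list of relatives and regulators of p53 5 were above 0 (26.3%, background 45.7%), with a median of -0.10. In this list 3 were at least 2-fold lower (background 3.03%). The highest was PPP1R13L, an inhibitor of p53-driven apoptosis, with 0.88. The 3 lower genes all encode kinases of the DNA damage response that act upstream of p53. CHEK1 went from 0.79 to -0.38 (log2 ratio of -1.18). ATM and CHEK2, named after their values were seen, had -1.11 and -1.04, although ATM came to -0.34 with the mean over its 2 probes.

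In a second list of 32 p53 targets outside the members, 30 were measured and 20 were above 0 (66.7%, background 45.7% of all genes). The median was 0.12, close to that of the members, and came to -0.050 without scaling and -1.10 with spike-in scaling. SESN2 was the highest, ANKRA2 (1.05, named after its value was seen) was also at least 2-fold higher, though not without scaling (0.88), and E2F7, a repressor of cell cycle genes that p53 activates, was the lowest (-1.37). Of 17 cell cycle genes that p53 lowers through p21 and DREAM all were below 0 and 9 were at least 2-fold lower, from -1.74 for PLK1 to -0.33 for AURKB. Among all 23752 genes 11631 were below 0 and 3.03% were at least 2-fold lower. Whether fewer dividing cells bear on the members was not tested. In a list of 22 relatives of the members 21 were measured and 13 were above 0 (61.9%, background 45.7%). Its highest was CCNG2, the relative of CCNG1, with 1.47, and its lowest was RRM2. Both were dim, with unscaled signals of 167 (DMSO) and 412 (HTE) for CCNG2 and of 909 and 183 for RRM2.

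BBC3, PMAIP1, TNFRSF10B, GDF15 and SESN2 are also known as targets of ATF4 or its partner CHOP in the response to amino acid shortage and endoplasmic reticulum stress. All 6 genes of a short list of that response were higher with HTE (background 45.7%), from 0.29 for ASNS to 2.32 for CHAC1. Their median was 0.93, and -0.29 with spike-in scaling. The part of this response in the values of the p53 targets was not tested.

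**Figure D4:**
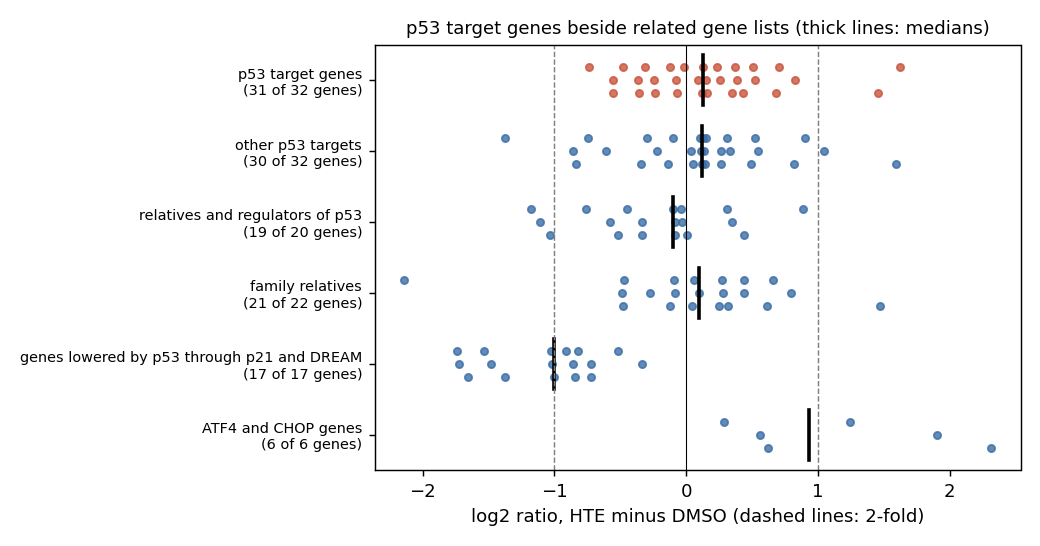
Log2 ratio (HTE minus DMSO) of each measured gene in the p53 target list (red) and in 5 related lists (blue), with thick lines at the medians and dashed lines at 2-fold. The p53 targets and the other p53 targets are spread around a median of 0.12, the cell cycle genes lie left of 0 and the ATF4 and CHOP genes right of it.

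The direction of small ratios depended on the processing. Leaving out spike-in scaling, 24 of the 31 genes kept their sign under each planned setting, 13 above 0 and 11 below. Of the 7 genes that did not, BAX, FAS, PHLDA3, RRM2B and SPATA18 were below 0 without scaling, and MDM2 and EDA2R were above 0 with another background correction. Without scaling 13 of the 31 members were above 0, beside 31.8% of all genes. The median of the members was then -0.046, and all genes together had a median of -0.16. The E1A spike-in RNA was brighter on the HTE array, by 1.05 on average over 8 probes without scaling, but unevenly, from 0.45 to 1.57. Scaled to it, TP53INP1 (0.40) and BBC3 (0.23) were the only members above 0, and neither was past 2-fold.

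**Figure D5:**
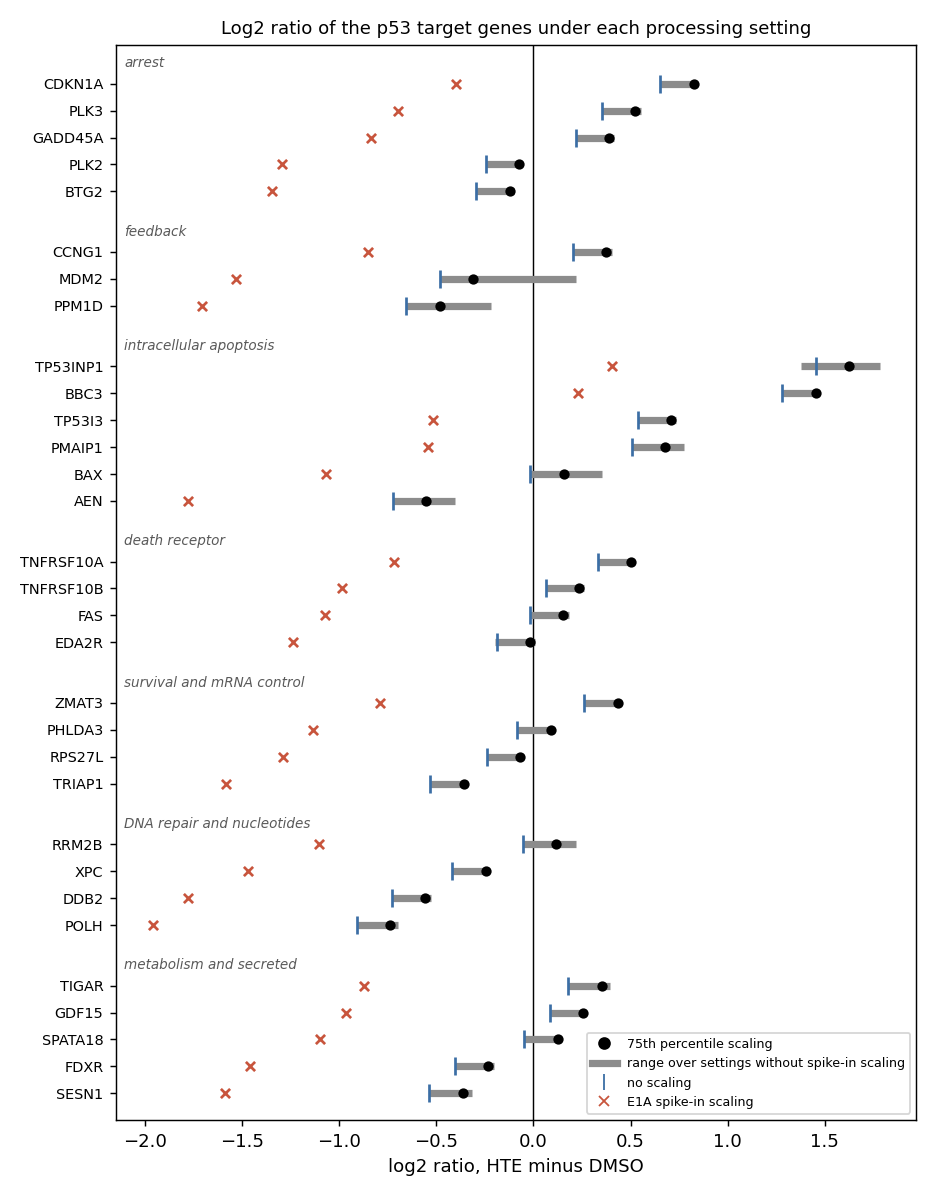
Log2 ratio (HTE minus DMSO) of 31 p53 target genes after scaling to the 75th percentile (black points), its range over the planned settings other than spike-in scaling (grey bars), without scaling (blue ticks) and with E1A spike-in scaling (red crosses). TP53INP1 and BBC3 are right of 0 in every setting, and 7 genes have bars that cross 0.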

How the data were processed

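The authors extracted total RNA with Trizol, labelled it with Cy3, hybridised it to Agilent SurePrint G3 8x60k arrays, and deposited the Feature Extraction output of each array (version 11.5.1.1 per the file headers, 10.7 in the submitters' processing notes). The deposited column used holds intensity, namely the processed signal, background-subtracted by the software and not scaled between arrays. The flags for spots above background and for outliers are other columns of the deposited files.

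Without control and outlier spots, signals were put on a log2 scale, reduced by the 75th percentile of their array and averaged over the spots of a probe. Probes entered if a share of 0.5 or more of their spots cleared the background on the DMSO or the HTE array. Where only 1 of the arrays did, the other was set no lower than its dimmest detected probe, which gives a bound. RefSeq accessions were matched to the GRCh38.p14 gene table for 28170 of 50599 probes. The array design names an older build, so coordinates are given only for the promoter table. Genes with a log2 ratio of 1 or more, up or down, the 2-fold cutoff of the methods, were counted. The number of arrays limits the precision.

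The members and all lists were chosen with earlier results of these data known, and some list genes are not reported here. Named are all members, MDM4, relatives of a member where it is described, and the highest and lowest gene of each other list measured on both arrays. Alternatives were normexp background correction (limma 3.58.1, R 4.3.3, offset 50, on the median foreground signal), other scalings, filters, probes and cutoffs. Steps were tested on simulated data. Other steps ran in Python 3.11.15 with pandas 2.3.3 and numpy 2.4.6, and plots in matplotlib 3.10.9.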

Additional observations from a re-analysis of the deposited data

How the results depend on the processing

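The 2 members at least 2-fold higher, the absence of any at least 2-fold lower and the 18 above 0 stayed within 1.5 times of these counts under each setting except spike-in scaling and the other cutoffs. Without scaling the balance of directions still turned, with 13 members above 0 and 18 below, while 31.8% of all genes were above 0. With spike-in scaling 0 members were 2-fold higher, 18 were 2-fold lower, 2 were above 0, and the median was -1.10, while 142 of all 23752 genes were 2-fold higher, 16205 were 2-fold lower, 3.32% were above 0 and their median moved by -1.21. At 1.5-fold 5 members were higher and 1 lower, and at 3-fold 1 was higher. The median of 0.12 was 0.045 with scaling to the median, -0.046 without scaling and 0.18 with the probes of a gene averaged. It was 0.19 with the next brightest probe, a setting chosen after seeing the data, which also turned the sign of MDM2 and PPM1D. The causes were not tested, apart from the common shift that a scaling makes. Higher genes were 63.4% of all 2-fold genes, 42.2% without scaling, 0.869% with spike-in scaling and 50.4% with the own value of dim probes. Without a filter on dim probes 3 members were 2-fold higher, TNFRSF10C included, and the median of all genes was 0.20. Signal over background limits TNFRSF10C and the dim probes of EDA2R and POLH. No paired analysis was possible because DMSO and HTE have a single array each.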

Other observations

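The relatives of BBC3 and PMAIP1 in the BCL2 family, taken out of the list of relatives after the values were seen, were all under 2-fold relative to the 75th percentile. Of 7 genes 6 were above 0, 3 without scaling and 0 with spike-in scaling. Over all genes 45.7% were above 0, 31.8% without scaling and 3.32% with spike-in scaling. BCL2L1, which encodes the antiapoptotic BCL-XL, had signals of -1.40 and -0.74, a log2 ratio of 0.66. MCL1, the antiapoptotic partner of NOXA, had 1.32 and 1.61 (0.28). BCL2L11, which encodes the BH3-only protein BIM and is not a classical p53 target, was the only one below 0 on this scale, with 1.29 and 0.81 (-0.48). The other BH3-only genes of the list, BAD and BID, had log2 ratios of 0.32 and 0.096.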
